A study of Mus musculus with 18 samples.

Results

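Retinal pigment epithelium (RPE) labelled Mertk-/-V2Tyro3-/-V2 was compared with RPE of C57BL/6 mice by bulk sequencing of polyadenylated RNA. Of 55333 named genes in the table of normalized counts, 19339 had at least 10 normalized counts in at least 3 of the 9 libraries of these groups, and these are described here. At the edge of that rule, the genes just inside had a third-highest count of 10.02 and those just outside 9.72. The 3 libraries labelled Mertk-/-V2Tyro3-/-V2 are called the V2 libraries from here on. They were set against C57BL/6 replicates 1 to 3, the B6J_23 libraries, whose names carry the same mark 23 as the V2 libraries and which served as matched controls. C57BL/6 replicates 4 to 6, the BL6J libraries, lack that mark and served as a second control set. The genotype given for both control sets is C57BL/6J. Per the labels, all 9 libraries came from the RPE of untreated mice at postnatal day 25, taken 1 h after light onset, and their RNA was purified on columns and sequenced as paired ends. The table holds 12 libraries and the series 18. The labels number the libraries as biological replicates but do not say whether animals were pooled, which sex they were or which exons the V2 alleles lack, so p-values measure the spread between libraries.

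The RPE is the pigmented cell layer that lies against the photoreceptors, regenerates the retinal chromophore and takes up the tips of outer segments that photoreceptors shed each day, with a burst soon after light onset. MERTK, TYRO3 and AXL are the TAM receptor tyrosine kinases, which bind phosphatidylserine on membranes through the bridging proteins GAS6 and protein S. MERTK drives the ingestion step of outer segment uptake, and its loss leads to photoreceptor degeneration. In macrophages and dendritic cells, TAM signalling is known to restrain interferon and cytokine responses, in part through SOCS proteins.

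The V2, B6J_23 and BL6J libraries held 25385952 to 30401422, 23414164 to 30191733 and 14135502 to 18263609 reads, so the second control set was the shallowest. On the first principal component, with 52.9% of the variance, the V2 libraries lay at -25.6, 5.2 and 85.2, the B6J_23 libraries at -85.3, -39.7 and -33.1 and the BL6J libraries at -20.2, 56.3 and 57.1. All 3 B6J_23 libraries lay below every V2 and BL6J library on it, the V2 and BL6J libraries overlapped, and V2 replicate 3 and B6J_23 replicate 1 lay at its ends. The second component, with 13.4%, separated the 3 groups, at -41.9 to -23.6, -7.1 to 0.7 and 28.6 to 40.7. All 18 RPE markers examined were measured in these libraries, as were markers of photoreceptors, lens, ocular surface and muscle.

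Tyro3, at chr2:119797733-119818104 on the plus strand (GRCm38, GENCODE M21), had 1777, 1904 and 1433 normalized counts in the V2 libraries, against 3814, 4161 and 3404 in the B6J_23 libraries and 3202, 2765 and 3042 in the BL6J libraries. Every V2 library lay below all 6 control libraries. The log2 difference was -1.16 ± 0.12 (SE, 3 libraries against 3) against B6J_23, with an adjusted p of 0.0101, and -0.82 ± 0.12 against BL6J, with an adjusted p of 0.0152. All adjusted p-values given here are from limma with Benjamini-Hochberg adjustment over the 19339 genes unless another tool is named, a gene is called where that p is below 0.05, and "rose" and "fell" are used of called genes only. For Tyro3, an exact two-sided permutation test gave p = 0.1 against the matched controls, the smallest that 3 against 3 libraries allow, and p = 0.0119 against all 6, the smallest that 3 against 6 allow. The same test gave 0.7 and 0.595 for Mertk, 0.1 and 0.0595 for Axl, 0.4 and 0.94 for Gas6 and 0.1 and 0.0119 for Pros1.

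Mertk, at chr2:128698956-128802894 on the plus strand, had 3222, 4113 and 2894 normalized counts in the V2 libraries, against 3291, 3924 and 3381 in B6J_23 and 3169, 2638 and 2811 in BL6J. The ranges overlapped, and the log2 difference was -0.06 ± 0.19 against B6J_23 (adjusted p = 0.854) and 0.24 ± 0.19 against BL6J (adjusted p = 0.806). The whole-gene count of Mertk thus did not separate the libraries by their label. Reads of any exon that a deletion leaves in place are counted in it, the deposited table has no exon counts, and the groups are therefore called by their labels throughout.

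Axl, the remaining TAM receptor, had 2245, 2371 and 1735 normalized counts in the V2 libraries, against 1492, 1538 and 1648 in B6J_23 and 1854, 1807 and 1791 in BL6J. V2 replicates 1 and 2 lay above all 6 control libraries and replicate 3 did not, and the log2 differences of 0.43 and 0.21 were not called (adjusted p = 0.101 and 0.607). Pros1, which encodes protein S, had 643, 936 and 838 in the V2 libraries, above the 370, 416 and 413 of B6J_23 and the 485, 600 and 518 of BL6J. Its groups did not overlap, but the log2 differences of 0.99 and 0.58 missed the threshold (adjusted p = 0.0502 and 0.232). Gas6 had 6641, 6910 and 6237 against 6548, 5497 and 6443 in B6J_23 and 6973, 6718 and 7246 in BL6J, with overlapping ranges and log2 differences of 0.10 and -0.08.

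**Figure D1:**
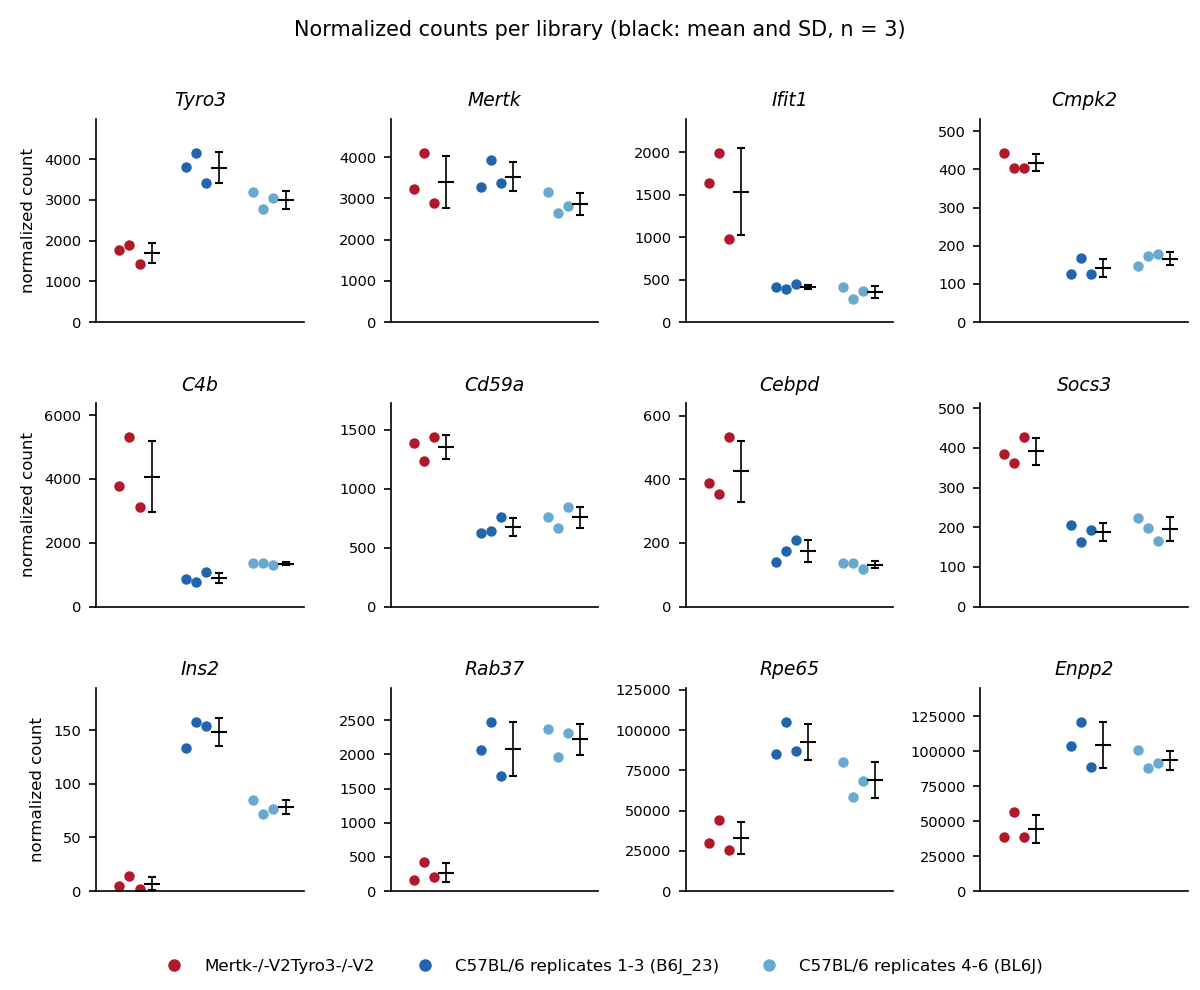
Normalized counts of 12 genes in each V2, B6J_23 and BL6J library (points, linear axes from 0), with the mean and SD of each group (n = 3). Tyro3, Ins2, Rab37, Rpe65 and Enpp2 lie lower in every V2 library than in all 6 control libraries, Ifit1, Cmpk2, C4b, Cd59a, Cebpd and Socs3 lie higher, and the Mertk ranges overlap.

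Of the 19339 genes, 110 were called against the matched controls, 0.569% of those tested: 57 rose (0.295%) and 53 fell (0.274%). Against BL6J, 130 were called (0.672%), of which 35 rose (0.181%) and 95 fell (0.491%). At an unadjusted p below 0.05, 2582 genes were higher (13.4%) and 1703 lower (8.81%) against B6J_23, and 1016 higher (5.25%) and 1055 lower (5.46%) against BL6J. Both comparisons use the same V2 libraries, so their values are given side by side and their agreement is not used. The control sets also differed from each other: 33 genes were called between B6J_23 and BL6J (0.171%), all lower in B6J_23. The V2 libraries lay above all 6 control libraries for 674 genes (3.49%) and below them for 463 genes (2.39%), 1137 in all (5.88%), and 95 genes (0.491%) were both called against B6J_23 and apart from all 6.

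Single libraries decided many calls against the matched controls. Leaving out B6J_23 replicate 1 or replicate 2 left 0 genes called by limma, with 2713 and 3054 genes at an unadjusted p below 0.05, where the fit of all libraries had 4285 (22.2%), and 2071 (10.7%) against BL6J. With all libraries, edgeR called 130 genes and DESeq2 1711, of which 1112 were higher and 599 lower. Against BL6J DESeq2 called 183 genes higher and 369 lower. Without B6J_23 replicate 3 limma called 6 genes, without V2 replicates 1, 2 and 3 it called 10, 141 and 39, and without BL6J replicates 4, 5 and 6 it called 144, 50 and 19. Against BL6J the count stayed between 44, without BL6J replicate 5, and 103, without V2 replicate 3. No gene was called against B6J_23 in all 9 of these fits, whereas 35 of the 130 genes called against BL6J were. Of these 35, 26 were gene models, pseudogenes or mitochondrial transcripts, and the 9 others were Cmpk2, Ifit1, Cebpd, Ins2, Rab37, Zc3h7b, Psd3, Lalba and Aldoart1. Aldoart1, an aldolase-related gene, had log2 differences of -0.11 against B6J_23 (adjusted p = 0.859), -2.52 against BL6J (adjusted p = 0.00752) and -2.41 for B6J_23 against BL6J (adjusted p = 0.0255).

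**Figure D2:**
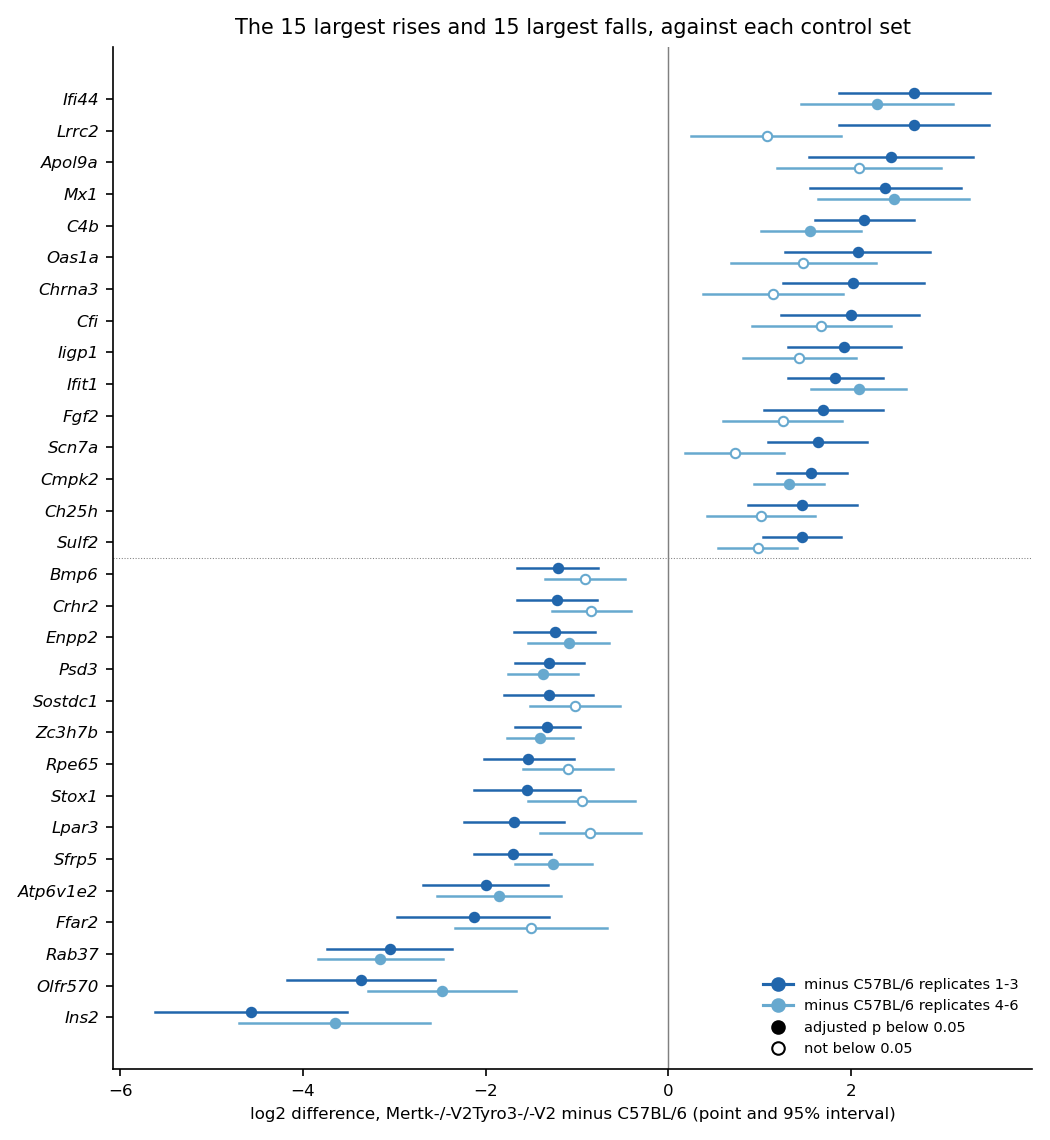
Log2 difference with its 95% interval for the 15 largest rises (upper rows) and 15 largest falls (lower rows) called against B6J_23 whose V2 libraries lie apart from all 6 controls, shown against B6J_23 and against BL6J. Filled points have an adjusted p below 0.05; these genes were chosen by the B6J_23 comparison, and several are open, or nearer to 0, against BL6J.

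By count, interferon-induced effectors gave more rises against B6J_23 than any other list examined, but theirs was also the longest list. Complement components, with 2 of 12, and complement regulators and receptors, with 3 of 18, rose in a similar share. Of 45 measured interferon-induced effectors, 7 rose and 0 fell against B6J_23, and 6 rose and 0 fell against BL6J by limma. Over all genes tested, 0.295% rose against B6J_23 and 0.181% against BL6J. EdgeR called 7 and 8 of the effectors and DESeq2 21 and 18, all higher. DESeq2 called 1112 and 183 of all 19339 genes higher. The median log2 difference of these effectors was 0.55 and 0.84, beside a median over all genes of 0.01 and 0.02. Above all 6 control libraries lay 20 of the 45, beside 3.49% of all genes. The members that rose against the matched controls were Ifi44, Ifit1, Mx1, Oas1a, Cmpk2, Rtp4 and Apol9a.

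Ifit1, whose product binds viral RNA that lacks host cap methylation, had 1639, 1996 and 978 normalized counts in the V2 libraries, against 408, 392 and 443 in B6J_23 and 409, 274 and 369 in BL6J. Each V2 library exceeded all 6 controls, with V2 replicate 3 the nearest to them. The log2 difference was 1.83 ± 0.24 against B6J_23 (adjusted p = 0.0197) and 2.09 ± 0.24 against BL6J (adjusted p = 0.00572). Cmpk2, a mitochondrial nucleotide kinase induced by interferon, had 444, 404 and 405 counts, against 127, 168 and 127 in B6J_23 and 148, 172 and 179 in BL6J. It was the most even of the group, with log2 differences of 1.57 ± 0.17 (adjusted p = 0.0101) and 1.33 ± 0.17 (adjusted p = 0.00752). Leaving out B6J_23 replicate 1 or 2 ended the Ifit1 and Cmpk2 calls against B6J_23. With 1 library left out, Ifit1 was called against B6J_23 in 5 of 9 fits and Cmpk2 in 6 of 9. Both genes were called against BL6J in 9 of 9 such fits.

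Ifi44, an interferon-induced protein of uncertain biochemical function, had 364, 389 and 152 counts in the V2 libraries, against 47.6, 46.9 and 33 in B6J_23 and 48.1, 77.3 and 47.1 in BL6J. Mx1, a dynamin-like GTPase that blocks influenza viruses, had 191, 78.5 and 137, against 23.3, 29.3 and 19.4 in B6J_23 and 31.5, 15.7 and 22 in BL6J. Both lay apart from all 6 controls but varied more than 2-fold among the V2 libraries. Their log2 differences were 2.70 ± 0.38 and 2.38 ± 0.38 against B6J_23 (adjusted p = 0.0251 and 0.0338) and 2.29 and 2.47 against BL6J (adjusted p = 0.0248 and 0.0167). Oas1a, an oligoadenylate synthetase that activates RNase L, had 332, 195 and 123 counts, against 33.6, 46.9 and 64.1 in B6J_23 and 70.3, 86.5 and 58.1 in BL6J, and rose against B6J_23 (2.08, adjusted p = 0.0357) but was not called against BL6J (1.48, adjusted p = 0.109). Apol9a, an apolipoprotein L family member with a near-identical neighbour, Apol9b, with which it may share reads, had 231, 77.7 and 73.2, against 20.5, 14.1 and 25.3 in B6J_23 and 25.9, 27.5 and 22 in BL6J. The Apol9a differences were 2.44 (adjusted p = 0.0352) and 2.09 (adjusted p = 0.0501).

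Rsad2, which encodes the antiviral enzyme viperin, had 851, 576 and 591 counts in the V2 libraries, against 205, 294 and 467 in B6J_23 and 122, 172 and 182 in BL6J. Its groups did not overlap. It was not called against B6J_23 (log2 1.12, adjusted p = 0.123), and it rose against BL6J (2.07, adjusted p = 0.0219). Isg15, an interferon-induced ubiquitin-like modifier, and Ifit3, a partner of Ifit1, were not called in either comparison, at log2 differences of 1.33 and 0.98 against B6J_23 and 1.70 and 1.13 against BL6J.

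Of 21 interferon sensors and signalling genes, 7 lay above all 6 control libraries and 0 below them, beside 3.49% and 2.39% of all genes. The list median was 0.07 against B6J_23 and 0.49 against BL6J. Stat2, a part of the factor that carries the interferon signal to the nucleus, was not called, at log2 differences of 0.57 and 0.54 (adjusted p = 0.0845 and 0.124). Irf7, the factor that amplifies interferon production, was not called either, at 0.85 and 1.26 (adjusted p = 0.195 and 0.156).

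The immunity-related GTPases and antigen presentation genes numbered 36, of which 3 rose against B6J_23 and 2 against BL6J, with 0 falls by limma in either. The shares of all genes that rose were 0.295% and 0.181%. DESeq2 called 13 and 8 of the 36, all higher, beside 1112 and 183 of all 19339 genes. The median log2 differences were 0.11 and 0.53. Irgm2, an interferon-induced GTPase of cellular membranes, had 689, 767 and 516 counts in the V2 libraries, against 286, 311 and 322 in B6J_23 and 339, 394 and 386 in BL6J (log2 1.08, adjusted p = 0.0197, and 0.80, adjusted p = 0.032). Irgm2 overlaps Igtp on the same strand, so reads of the pair may not be separable. Iigp1, a GTPase that attacks the vacuoles of intracellular parasites, had 198, 360 and 186, against 50.4, 63.3 and 72.9 in B6J_23 and 74.0, 94.4 and 92.6 in BL6J, and rose against B6J_23 (1.93, adjusted p = 0.0265) with 1.44 against BL6J (adjusted p = 0.0501). Gbp9, a guanylate-binding protein, rose against B6J_23 (1.42, adjusted p = 0.0338) and was not called against BL6J (0.68, adjusted p = 0.246), and Tgtp1, an immunity-related GTPase with the near-identical copy Tgtp2, was called against BL6J (1.72, adjusted p = 0.0376) and missed against B6J_23 (1.59, adjusted p = 0.0527). The class I chain genes B2m and H2-D1, the most abundant of the list, had log2 differences of 0.34 and -0.53 against B6J_23 and 0.37 and 0.32 against BL6J, none called.

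Promoters of interferon-induced genes commonly carry the interferon-stimulated response element and its core, GAAA repeated after any 2 bases, was searched on both strands in the 250 bases before each start in the RefSeq promoter table (GRCm38.p6). The core stood in promoters of 936 of all 27025 genes of the table (3.46%) and of 415 of the 12990 tested genes with an entry (3.19%). It stood in 14 of the 37 interferon-induced effectors with an entry (37.8%), 12 of 27 GTPase and antigen presentation genes (44.4%) and 1 of 15 sensors (6.67%). Of the genes of these lists that rose against B6J_23, 6 had an entry and 4 of them held the core, namely Ifit1, Oas1a, Irgm2 and Apol9a, while those of Cmpk2 and Ifi44 held no match in this window. The 200 bases before the start are printed 5′ to 3′ on the gene strand for 3 of these and for Socs3, a gene described further on, to show how the motifs lie. Capitals mark the core in the first 3 and, in Socs3, the STAT dimer motif TTCNNNGAA. The core covers bases 104 to 95 and 85 to 76 before the Ifit1 start, 64 to 55 before the Irgm2 start and, in overlapping copies, 20 to 11 and 14 to 5 before the Oas1a start. None of the marked cores overlaps a TTCNNNGAA match.
Ifit1, chr19:34640689-34640888, plus strand: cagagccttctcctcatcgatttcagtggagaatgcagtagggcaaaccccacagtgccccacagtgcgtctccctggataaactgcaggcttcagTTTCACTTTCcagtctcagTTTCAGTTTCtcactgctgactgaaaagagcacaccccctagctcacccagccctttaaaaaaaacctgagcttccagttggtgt
Oas1a, chr5:120907526-120907725, minus strand: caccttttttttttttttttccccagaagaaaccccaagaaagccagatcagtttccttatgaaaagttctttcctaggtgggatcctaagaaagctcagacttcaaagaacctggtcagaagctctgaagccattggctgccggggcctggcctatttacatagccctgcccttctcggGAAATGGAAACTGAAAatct
Irgm2, chr11:58214777-58214976, plus strand: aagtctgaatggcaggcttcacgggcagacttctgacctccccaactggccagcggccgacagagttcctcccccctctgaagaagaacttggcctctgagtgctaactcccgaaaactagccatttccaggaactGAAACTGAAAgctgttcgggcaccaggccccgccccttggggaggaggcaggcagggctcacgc
Socs3, chr11:117969367-117969566, minus strand: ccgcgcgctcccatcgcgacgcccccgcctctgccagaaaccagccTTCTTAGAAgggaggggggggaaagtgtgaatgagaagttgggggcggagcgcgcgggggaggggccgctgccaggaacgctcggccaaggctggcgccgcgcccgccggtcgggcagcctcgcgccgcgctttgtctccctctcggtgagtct

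Of 12 measured complement components, 2 rose against B6J_23 and 1 against BL6J, beside 0.295% and 0.181% of all genes. Log2 differences were above 0 for 12 of the 12 against B6J_23 and 9 of the 12 against BL6J, with medians of 0.77 and 0.56. C4b, the component cleaved in the classical and lectin pathways, had 3783, 5311 and 3133 normalized counts in the V2 libraries, against 854, 777 and 1073 in B6J_23 and 1375, 1369 and 1290 in BL6J. The V2 libraries lay well above both sets, and the differences were 2.15 ± 0.25 (adjusted p = 0.0105) and 1.56 ± 0.25 (adjusted p = 0.0196). C4b has a close copy, C4a, so the assignment of its reads is uncertain. C1qc, a chain of the recognition molecule C1q, had 363, 379 and 448, against 181, 227 and 217 in B6J_23 and 250, 183 and 235 in BL6J (0.93, adjusted p = 0.045, and 0.83, adjusted p = 0.0571). The other chains, C1qa and C1qb, were not called at 0.71 and 0.65 against B6J_23.

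Of 18 complement regulators and receptors, 3 rose against B6J_23 and 1 against BL6J, beside 0.295% and 0.181% of all genes. The medians were 0.41 and 0.18, with 11 of the 18 above 0 in each comparison. Cd59a, the membrane protein that blocks pore formation, had 1390, 1239 and 1439 normalized counts in the V2 libraries, against 624, 645 and 763 in B6J_23 and 762, 667 and 845 in BL6J. All V2 values exceeded the controls, with log2 differences of 1.00 (adjusted p = 0.0119) and 0.84 (adjusted p = 0.0121). Cfi, the protease that degrades C3b and C4b, had 64.1, 113 and 57.9, against 15.9, 27.0 and 13.6 in B6J_23 and 22.2, 22.3 and 23.5 in BL6J (2.00, adjusted p = 0.0357, and 1.68, adjusted p = 0.0584). Serping1, the C1 inhibitor, had 1478, 1442 and 1484, against 878, 984 and 1109 in B6J_23 and 1173, 1105 and 1234 in BL6J (0.57, adjusted p = 0.0357, and 0.33, adjusted p = 0.203). None of the 3 regulators was called against B6J_23 once V2 replicate 3 and B6J_23 replicate 1 were left out, where the Cd59a difference was 0.90 (adjusted p = 0.12).

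C1q chains are made by microglia and macrophages in the eye, and the markers of these cells stood as follows. Of 31 microglia and macrophage markers, 3 rose against B6J_23 and 1 against BL6J, beside 0.295% and 0.181% of all genes. Above all 6 control libraries lay 14, beside 3.49% of all genes, and the medians were 0.49 and 0.74. Mpeg1, a pore-forming protein of phagocytes, had 511, 613 and 658 counts in the V2 libraries, against 277, 241 and 277 in B6J_23 and 392, 304 and 303 in BL6J (1.16, adjusted p = 0.0265, and 0.84, adjusted p = 0.0568). Ctss, a lysosomal protease of antigen-presenting cells, had 646, 578 and 593, against 357, 370 and 330 in B6J_23 and 481, 362 and 370 in BL6J (0.78, adjusted p = 0.0352, and 0.59, adjusted p = 0.0774). Neither Mpeg1 nor Ctss was called against BL6J. Csf1r, the receptor on which these cells depend, had a log2 difference of -0.69 (adjusted p = 0.124), and the summed level of the list was 12750 to 15300 in V2, 14200 to 16640 in B6J_23 and 10980 to 13710 in BL6J, ranges that overlap. No marker of the list was at 0 in all 9 libraries. In bulk RNA, more cells of a type and more RNA per cell cannot be told apart, and the part of these cells in the interferon and complement genes was not tested.

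Genes of the acute phase and STAT3 response numbered 27, of which 3 rose against B6J_23 and 3 rose and 1 fell against BL6J. Over all genes, 0.295% rose against B6J_23, and 0.181% rose and 0.491% fell against BL6J. The list medians were 0.17 and 0.43. Socs3, the inhibitor that cytokine receptors induce through STAT3, had 384, 362 and 427 normalized counts in the V2 libraries, against 205, 162 and 194 in B6J_23 and 224, 197 and 165 in BL6J. All 3 V2 values lay above the controls (1.06, adjusted p = 0.0265, and 1.01, adjusted p = 0.0184). Its printed promoter holds TTCNNNGAA at bases 154 to 146 before the start, a motif in 2 of 21 genes of the list with an entry (9.52%), 7.14% of tested genes and 8.13% of all genes of the promoter table. Cebpd, which encodes the acute phase factor C/EBP delta, had 389, 354 and 533, against 140, 174 and 208 in B6J_23 and 137, 138 and 119 in BL6J (1.28, adjusted p = 0.0265, and 1.67, adjusted p = 0.00572). Cebpd overlaps Spidr on the opposite strand, and the counting strand is not given in the sources used here. Osmr, the oncostatin M receptor, had 8216, 11363 and 7300, against 5882, 5889 and 5352 in B6J_23 and 5110, 4262 and 4455 in BL6J, and was called against BL6J (0.94, adjusted p = 0.0465) and not against B6J_23 (0.63, adjusted p = 0.111). Stat3 itself was not called, at 0.30 and 0.71.

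Fgf2, a growth factor that retinal cells raise under stress, had 485, 570 and 1185 normalized counts in the V2 libraries, against 203, 211 and 220 in B6J_23 and 303, 256 and 308 in BL6J. V2 replicate 3 was the highest by far, and the differences were 1.70 (adjusted p = 0.0357) and 1.26 (adjusted p = 0.0987). The antisense transcript Fgf2os, whose reads cannot be told apart without strand, averaged 57.6 in V2, 6.12 in B6J_23 and 11.9 in BL6J. Of 23 measured cytokines, chemokines and receptors, 1 rose against B6J_23, beside 0.295% of all genes. It was Csf1, the growth factor of macrophages, with 808, 831 and 777 counts, against 559, 517 and 545 in B6J_23 and 660, 575 and 694 in BL6J (0.58, adjusted p = 0.031). Against BL6J limma called 0 of the 23, with 4 higher and 0 lower at an unadjusted p below 0.05, beside 5.25% and 5.46% of all genes. Of 24 inflammasome and cell death genes 1, the pore-forming Gsdme, rose against B6J_23 (0.94, adjusted p = 0.045) and was not called against BL6J (0.38). Gsdme overlaps Mpp6 on the opposite strand, which averaged 954 counts in V2, 664 in B6J_23 and 830 in BL6J. The other members mostly lay lower against B6J_23, where 6 of the 24 were above 0 and the median was -0.21, while against BL6J 20 were above 0 and the median was 0.22.

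**Figure D3:**
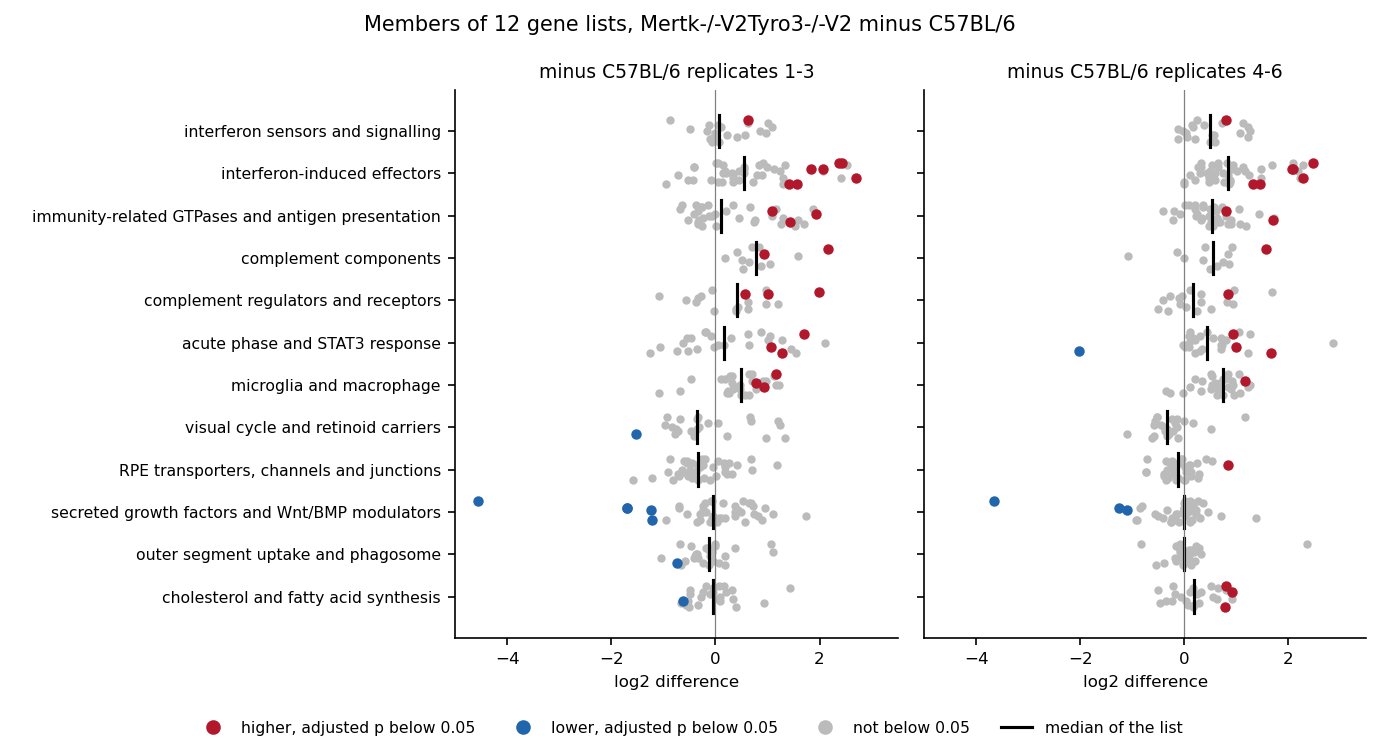
Log2 differences of the measured members of 12 gene lists, V2 against B6J_23 (left) and V2 against BL6J (right). Red and blue points are members called higher and lower, grey points were not called, and black bars are list medians, which for the interferon-induced effectors are 0.55 and 0.84.

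The largest rises against B6J_23 also held genes outside the lists. Lrrc2, a leucine-rich repeat protein, had 302, 291 and 703 normalized counts in the V2 libraries, against 56.0, 56.3 and 69.0 in B6J_23 and 142, 189 and 243 in BL6J. The groups were apart, with log2 differences of 2.70 (adjusted p = 0.0251) and 1.08 (adjusted p = 0.276). Chrna3, a nicotinic acetylcholine receptor subunit, had 139, 191 and 186, against 30.8, 48.1 and 46.7 in B6J_23 and 51.8, 101 and 84.8 in BL6J (2.03, adjusted p = 0.0357, and 1.15, adjusted p = 0.202). Chrnb4, its usual partner from the same gene cluster, rose in both comparisons (0.95, adjusted p = 0.0352, and 0.87, adjusted p = 0.0363). Scn7a, an atypical sodium channel, had 126, 118 and 129, against 44.8, 31.7 and 42.8 in B6J_23 and 90.7, 78.6 and 58.1 in BL6J (1.64, adjusted p = 0.0265, and 0.73, adjusted p = 0.248).

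Sulf2, a sulfatase that trims heparan sulfate, had 934, 1439 and 1361 normalized counts in the V2 libraries, against 413, 433 and 478 in B6J_23 and 535, 748 and 593 in BL6J. Its values were apart from both sets (1.47, adjusted p = 0.0202, and 0.98, adjusted p = 0.053). Ch25h, an interferon-inducible enzyme that makes an antiviral oxysterol, had 220, 195 and 177, against 64.3, 53.9 and 99.1 in B6J_23 and 81.4, 93.0 and 118 in BL6J (1.47, adjusted p = 0.0448, and 1.02, adjusted p = 0.134). Of the 15 largest rises against B6J_23, 10 were not called against BL6J.

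Neural retina transcripts moved with the libraries as well. The summed rod marker count was 169500, 148500 and 367000 in V2, 80850, 200000 and 169800 in B6J_23 and 209200, 483600 and 420700 in BL6J, and that of inner retina markers was 45380, 54060 and 76200, against 35060, 36220 and 46100 in B6J_23 and 49530, 69530 and 62070 in BL6J. B6J_23 was thus the group with the least neural retina RNA on average, and BL6J the group with the most rod RNA. Limma called 0 of 20 rod, 0 of 12 cone and 0 of 26 inner retina markers in either V2 comparison, with median differences of 0.84, 1.33 and 1.51 against B6J_23 and -0.78, 0.07 and -0.24 against BL6J. At an unadjusted p below 0.05 against B6J_23, 1 rod, 7 cone and 13 inner retina markers were higher, beside 13.4% of all genes. EdgeR called 0 of them, and DESeq2 called 3 cone and 8 inner retina markers higher and 1 rod marker lower against B6J_23, and 1 rod marker lower against BL6J. Of all 19339 genes DESeq2 called 1112 higher and 599 lower against B6J_23, and 369 lower against BL6J. The part of neural retina RNA in the rises of Lrrc2, Chrna3, Scn7a and Sulf2 was not tested.

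Genes of RPE function were lower in part. Rpe65, the isomerohydrolase of the visual cycle, had 29656, 43865 and 25232 normalized counts in the V2 libraries, against 85451, 105278 and 87327 in B6J_23 and 80332, 58354 and 68265 in BL6J. Every V2 library lay below all 6 controls, and the difference was -1.53 ± 0.22 against B6J_23 (adjusted p = 0.0265) and -1.10 ± 0.22 against BL6J (adjusted p = 0.0586). Rpe65 was called against B6J_23 in 3 of 9 fits with 1 library left out and had log2 differences of -1.75 to -1.36 in them. It was the only one of 23 visual cycle and retinoid carrier genes called against B6J_23, by limma and by edgeR, and limma and edgeR called 0 against BL6J. At an unadjusted p below 0.05, 9 of the 23 were lower and 1 higher against B6J_23, beside 8.81% and 13.4% of all genes. Against BL6J 6 were lower and 1 higher at that level, beside 5.46% and 5.25%. DESeq2 called 9 and 1 of the 23 lower, beside 599 and 369 of all 19339 genes. The list medians were -0.35 and -0.32. Ttr, the retinol and thyroxine carrier, Stra6, the retinol importer, Rgr, a photoisomerase-like opsin, and Rlbp1, the retinal-binding protein of the cycle, stood at -0.93, -0.96, -0.84 and -0.69 against B6J_23, none called (adjusted p = 0.0718, 0.0768, 0.0918 and 0.126), and Lrat, which supplies the substrate of RPE65, at -0.35 (adjusted p = 0.245).

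The 18 RPE markers had medians of -0.47 against B6J_23 and -0.17 against BL6J, with 1 and 0 called by limma. At an unadjusted p below 0.05, 11 and 4 were lower, beside 8.81% and 5.46% of all genes. DESeq2 called 8 and 1 of the markers, all lower, beside 599 and 369 of all 19339 genes. Their summed level was 528400, 724400 and 463900 in V2, 828400, 1040000 and 897100 in B6J_23 and 810900, 639300 and 741800 in BL6J, so V2 replicate 2 lay within the range of BL6J. Fewer RPE cells in a library and less RNA per RPE cell cannot be told apart here. The 40 RPE transporters, channels and junction genes had medians of -0.34 and -0.12. Limma and edgeR called 0 of them against B6J_23, where 19 were lower and 3 higher at an unadjusted p below 0.05 and DESeq2 called 9 lower. Among all 19339 genes 8.81% were lower and 13.4% higher at that unadjusted level, and DESeq2 called 599 lower. The single call against BL6J was Slco1c1, a thyroid hormone carrier, at 0.84 (adjusted p = 0.0486), and 0.42 against B6J_23.

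The 23 RPE identity transcription factors and 24 melanin genes had medians of 0.07 and 0.05 against B6J_23 and 0.05 and 0.08 against BL6J, near those of all genes. Limma and edgeR called 0 of them in either comparison. At an unadjusted p below 0.05, 3 transcription factors were higher and 2 lower against B6J_23, and 5 melanin genes were higher and 2 lower, while DESeq2 called 1 transcription factor higher and 2 melanin genes higher and 1 lower. Among all 19339 genes 13.4% were higher and 8.81% lower at that unadjusted level, and DESeq2 called 1112 higher and 599 lower.

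Secreted factors gave several of the largest falls. Of 43 measured growth factors and Wnt or BMP modulators, 5 fell and 0 rose against B6J_23 by limma (median -0.05), where 0.274% of all genes fell. Against BL6J 3 fell and 0 rose, where 0.491% of all genes fell. DESeq2 called 4 higher and 8 lower against B6J_23, and 0 higher and 6 lower against BL6J. Of all 19339 genes DESeq2 called 1112 higher and 599 lower, and 183 higher and 369 lower. Ins2, one of the mouse insulin genes, had 5.01, 14.2 and 1.70 normalized counts in the V2 libraries, against 133, 158 and 154 in B6J_23 and 85.1, 72.1 and 76.9 in BL6J. Every V2 value was far under every control value, with log2 differences of -4.57 ± 0.47 (adjusted p = 0.0101) and -3.65 ± 0.47 (adjusted p = 0.00752). Because the V2 counts are few, the size depends on the pseudocount and on the library, and ranged from -5.21 to -3.29 against B6J_23 over 23 settings, of which 20 called it. The other insulin gene, Ins1, was listed at 0 in all 9 libraries.

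Sfrp5, a secreted Wnt inhibitor, had 419, 664 and 485 normalized counts in the V2 libraries, against 1452, 2139 and 1504 in B6J_23 and 1265, 1156 and 1259 in BL6J. It fell in both comparisons (-1.70, adjusted p = 0.0102, and -1.26, adjusted p = 0.0168). Bmp6, a bone morphogenetic protein, had 1046, 1459 and 840, against 2319, 2931 and 2354 in B6J_23 and 2135, 1801 and 2215 in BL6J (-1.21, adjusted p = 0.0349, and -0.91, adjusted p = 0.075). Bmp6 overlaps Txndc5, and part of its reads may be ambiguous. Sostdc1, a secreted antagonist of BMP and Wnt signals, had 1137, 1913 and 1101, against 2759, 3925 and 3385 in B6J_23 and 2638, 2569 and 2950 in BL6J (-1.31, adjusted p = 0.0352, and -1.02, adjusted p = 0.0746).

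Enpp2, which encodes autotaxin, the enzyme that makes lysophosphatidic acid, had 38611, 56261 and 38427 normalized counts in the V2 libraries, against 103590, 121105 and 88401 in B6J_23 and 101096, 88055 and 91403 in BL6J. It fell in both comparisons (-1.24, adjusted p = 0.0348, and -1.09, adjusted p = 0.0431), though only 2 and 1 of 9 fits with 1 library left out kept the call. Lpar3, a receptor of lysophosphatidic acid, had 66.1, 65.2 and 40.9, against 207, 213 and 140 in B6J_23 and 126, 86.5 and 97.3 in BL6J (-1.69, adjusted p = 0.0265, and -0.85, adjusted p = 0.189). Leaving out V2 replicate 3 and B6J_23 replicate 1 left Ins2 as the single call of the list in each comparison.

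Of 26 insulin and growth factor receptor signalling genes limma called 0 in either comparison, with 4 higher and 5 lower at an unadjusted p below 0.05 against B6J_23 and 1 higher against BL6J. DESeq2 called 2 higher and 0, beside 1112 of all 19339 genes called higher against B6J_23. The shares of all genes at an unadjusted p below 0.05 were 13.4% higher and 8.81% lower against B6J_23, and 5.25% higher against BL6J. Crhr2, a urocortin receptor among the 15 largest falls against B6J_23, had 259, 353 and 283 counts in the V2 libraries, against 599, 863 and 633 in B6J_23 and 570, 497 and 527 in BL6J (-1.22, adjusted p = 0.0338, and -0.84, adjusted p = 0.0925).

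The remaining large falls were genes of varied function. Rab37, a small GTPase of secretory vesicles, had 166, 432 and 209 normalized counts in the V2 libraries, against 2072, 2481 and 1685 in B6J_23 and 2374, 1966 and 2320 in BL6J. The values were far apart, with log2 differences of -3.05 ± 0.31 (adjusted p = 0.0101) and -3.16 ± 0.31 (adjusted p = 0.00486). Cd300lf, a lipid-binding receptor of myeloid cells that overlaps Rab37 on the opposite strand, had 9.02, 12.5 and 18.7, against 53.2, 58.6 and 42.8 in B6J_23 and 74.0, 62.9 and 84.8 in BL6J (-1.91, adjusted p = 0.0527, and -2.42, adjusted p = 0.0172), and reads of the pair cannot be told apart without the counting strand. Zc3h7b, a zinc finger RNA-binding protein that overlaps Rangap1, had 2342, 1369 and 1498, against 4214, 4212 and 4289 in B6J_23 and 4202, 4698 and 4479 in BL6J (-1.33, adjusted p = 0.0136, and -1.40, adjusted p = 0.00572). Psd3, an exchange factor for ARF GTPases, had 1925, 1238 and 1558, against 3699, 4022 and 3742 in B6J_23 and 3967, 4089 and 3923 in BL6J (-1.30, adjusted p = 0.0202, and -1.37, adjusted p = 0.00727). The 6 controls lay close together for Zc3h7b and Psd3, and all 3 V2 values well below.

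Atp6v1e2, a subunit isoform of the vacuolar proton pump, had 28.1, 35.1 and 18.7 normalized counts in the V2 libraries, against 86.7, 131 and 113 in B6J_23 and 105, 81.3 and 110 in BL6J (-2.00, adjusted p = 0.031, and -1.85, adjusted p = 0.025). Olfr570, an olfactory receptor gene, had 4.01, 6.68 and 3.41, against 41.0, 65.6 and 65.1 in B6J_23 and 18.5, 43.2 and 33 in BL6J (-3.36, adjusted p = 0.0101, and -2.48, adjusted p = 0.0151). Both fell against each control set, at levels where few reads carry the difference. Ffar2, a receptor of short-chain fatty acids, had 23, 32.6 and 20.4, against 99.8, 128 and 112 in B6J_23 and 109, 39.3 and 87.9 in BL6J (-2.13, adjusted p = 0.0395, and -1.50, adjusted p = 0.122). Stox1, a winged helix DNA-binding protein, had 208, 306 and 168, against 614, 680 and 648 in B6J_23 and 612, 316 and 396 in BL6J (-1.55, adjusted p = 0.0357, and -0.94, adjusted p = 0.167).

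Mertk and Tyro3 lie on the same chromosome. Of 212 genes tested within 10 Mb of Tyro3, 1 other gene, Bahd1, was called against B6J_23 (0.472%), and of 233 within 10 Mb of Mertk, 2 were, Tyro3 and Bahd1 (0.858%), near the 0.569% of all genes.

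Of 30 genes of outer segment uptake, 1 fell against B6J_23, where 0.274% of all genes fell. It was the tyrosine kinase Src (-0.74, adjusted p = 0.0352, and -0.38 against BL6J). Limma called 0 against BL6J, with 2 higher and 3 lower at an unadjusted p below 0.05, beside 5.25% and 5.46% of all genes. EdgeR called 1 lower and 0, and DESeq2 1 higher and 4 lower against B6J_23 and 1 higher and 1 lower against BL6J. Of all 19339 genes DESeq2 called 1112 higher and 599 lower, and 183 higher and 369 lower. The medians were -0.13 and 0.00. Among metabolic and stress genes, the calls against B6J_23 not yet given were the falls of Srebf1, the activator of lipid synthesis (-0.63, adjusted p = 0.0352), Ccnd1, a cyclin of G1 (-0.60, adjusted p = 0.0357), the linker histone gene Hist1h1c (-0.62, adjusted p = 0.0357) and Mt1, a metallothionein. Srebf1, Ccnd1 and Hist1h1c were not called against BL6J, at -0.36, -0.13 and -0.39 (adjusted p = 0.189, 0.802 and 0.158). Ccnd1 had 2710 to 3080 counts in V2, which overlapped the 2880 to 3590 of BL6J, while Srebf1 and Hist1h1c lay below all 6 controls. Mt1 had 4848, 5061 and 3676 normalized counts in the V2 libraries, against 8278, 9376 and 9104 in B6J_23 and 7554, 4575 and 5428 in BL6J, so V2 overlapped BL6J (-0.99, adjusted p = 0.0499, and -0.35, adjusted p = 0.581).

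Ccnd1 and Hist1h1c belong to the cell cycle and histone lists. Of 30 cell cycle genes, 2 had a log2 difference above 0 against B6J_23 and 24 against BL6J, with medians of -1.01 and 0.23, and the median of B6J_23 against BL6J was 1.15. Ccnd1 was the single call of that list, with 4 genes lower at an unadjusted p below 0.05. Of 18 histone genes, 11 were lower and 1 higher at an unadjusted p below 0.05 against B6J_23 and 3 lower against BL6J, with medians of -0.59 and -0.28. The shares of all genes at that level were 8.81% lower and 13.4% higher against B6J_23, and 5.46% lower against BL6J. DESeq2 called 7 and 2 of the histone genes, all lower, beside 599 and 369 of all 19339 genes.

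In 9 of the 27 pathway lists limma called 0 genes in both comparisons: RPE transcription factors, melanin, insulin signalling, matrix, lipid efflux and oxidation, the nuclear-encoded respiratory chain, glycolysis, the unfolded protein response and the circadian clock. Of their 244 distinct genes, 31 were higher and 36 lower at an unadjusted p below 0.05 against B6J_23 and 10 higher and 8 lower against BL6J. The shares of all genes were 13.4% higher and 8.81% lower, and 5.25% higher and 5.46% lower. EdgeR called 0 in both comparisons, and DESeq2 14 higher and 13 lower, and 3 higher and 1 lower. Of all 19339 genes DESeq2 called 1112 higher and 599 lower, and 183 higher and 369 lower. Against B6J_23, 10 of 26 unfolded protein response genes were lower and 0 higher at an unadjusted p below 0.05 (median -0.20), and 9 of 30 lipid efflux and oxidation genes were lower and 1 higher (median -0.20). In the respiratory chain list 3 of 30 genes were lower at that level, 1 of the 30 had a difference above 0, and the median was -0.14. Against BL6J these medians were -0.06, -0.01 and 0.00.

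Many calls against BL6J were of genes without a named function. Of the 95 falls, 72 were gene models or pseudogenes and 6 were mitochondrial transcripts, leaving 17 other named genes. In the comparison between the control sets, 26 of the 33 genes lower in B6J_23 were gene models or pseudogenes and 5 were mitochondrial. The mitochondrially encoded oxidase subunit mt-Co2 had 1924, 1813 and 1592 normalized counts in the V2 libraries and 1837, 1855 and 2277 in B6J_23, against 9456, 4651 and 6307 in BL6J. V2 and B6J_23 overlapped and BL6J stood apart from both (-0.16, adjusted p = 0.666, against B6J_23, -1.88, adjusted p = 0.00572, against BL6J, and -1.72, adjusted p = 0.0218, for B6J_23 against BL6J). The synthase subunit mt-Atp8 had 364, 298 and 300 in V2, against 198, 159 and 252 in B6J_23 and 1286, 797 and 992 in BL6J, so that V2 lay above B6J_23 and below BL6J. For mt-Atp8 and the complex I subunit mt-Nd4l the log2 differences were 0.68 and -0.15 against B6J_23 (neither called), -1.65 and -2.21 against BL6J and -2.33 and -2.06 between the control sets. All mitochondrial transcripts together took 3.96% to 4.33% of counts in V2, 3.93% to 4.37% in B6J_23 and 4.22% to 5.30% in BL6J, which overlapped.

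Cholesterol synthesis genes were among the rises against BL6J. Of 25 genes of cholesterol and fatty acid synthesis, 3 rose against BL6J and 1, Srebf1, fell against B6J_23, with medians of 0.19 and -0.05. Over all genes, 0.181% rose against BL6J and 0.274% fell against B6J_23. Hmgcs1, which makes the precursor of mevalonate, had 7296, 8954 and 8024 normalized counts in the V2 libraries, against 6162, 5722 and 6511 in B6J_23 and 5543, 4428 and 4191 in BL6J (0.40, adjusted p = 0.123, and 0.78, adjusted p = 0.0162). Fdft1, squalene synthase, had 5478, 6302 and 5397, against 4996, 5225 and 5082 in B6J_23 and 4187, 2842 and 2912 in BL6J (0.16, adjusted p = 0.46, and 0.81, adjusted p = 0.025), and Cyp51 had differences of 0.21 and 0.93 (adjusted p = 0.455 and 0.0375). V2 values lay above all 6 controls for both Hmgcs1 and Fdft1, but the list median of B6J_23 against BL6J was 0.37. Mt2, a metallothionein, fell against BL6J (-2.03, adjusted p = 0.0239), with 38.1, 33.4 and 40.0 counts in V2, 46.6, 77.4 and 67.1 in B6J_23 and 268, 122 and 111 in BL6J. Lalba, an alpha-lactalbumin gene, had 269, 423 and 245, against 106, 161 and 143 in B6J_23 and 79.6, 52.4 and 58.1 in BL6J (1.16, adjusted p = 0.078, and 2.26, adjusted p = 0.00572).

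**Figure D4:**
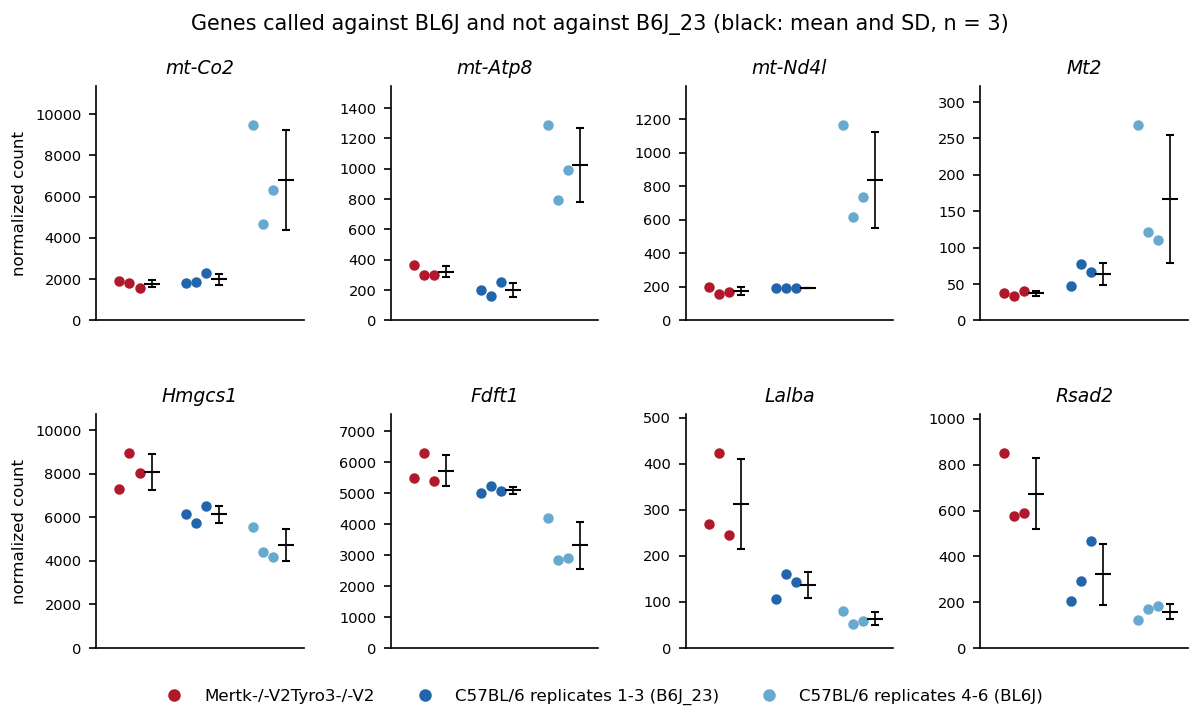
Normalized counts of 8 genes called against BL6J in each V2, B6J_23 and BL6J library, with group mean and SD (n = 3). The 3 mitochondrial transcripts and Mt2 are high in BL6J alone, while Hmgcs1, Fdft1, Lalba and Rsad2 are higher in every V2 library than in all 6 controls.

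Markers of tissues near the RPE were present in all libraries at varied levels. The summed count of lens markers was 464500, 317300 and 1231000 in V2, against 283100, 291200 and 108300 in B6J_23 and 302000, 36310 and 84630 in BL6J. All 24 lens markers had a log2 difference above 0 in both comparisons, with medians of 1.40 and 2.49. Above all 6 controls lay 10 of them, beside 3.49% of all genes. Limma called 0 lens markers, with 1 and 21 higher at an unadjusted p below 0.05, beside 13.4% and 5.25% of all genes. Ocular surface markers summed to 465800, 238400 and 88740 in V2, against 662200, 430500 and 449200 in B6J_23 and 390900, 219000 and 144000 in BL6J. Muscle markers summed to 6025, 11000 and 6923 in V2, against 28150, 28600 and 12430 in B6J_23 and 29180, 3453 and 3031 in BL6J. For ocular surface and muscle the V2 and BL6J ranges overlapped. Endothelial markers, at 13050 to 15390 in V2, exceeded the 7864 to 12000 of B6J_23 and overlapped the 11940 to 17530 of BL6J.

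**Figure D5:**
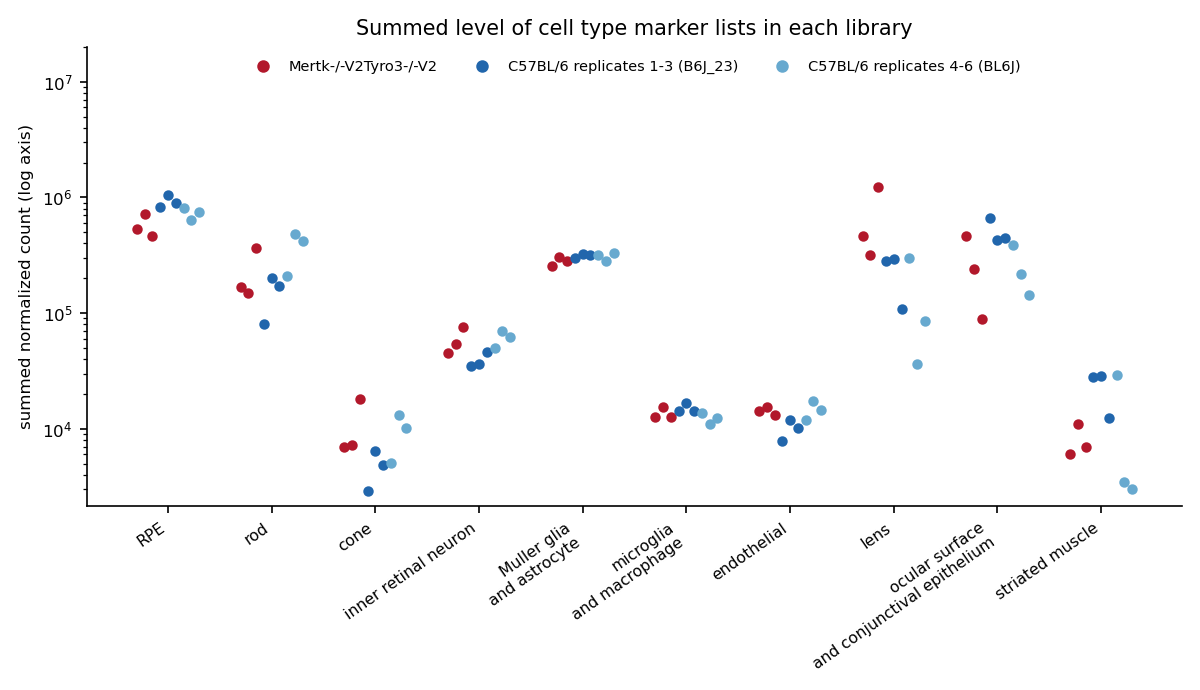
Summed normalized count of 10 marker lists in each V2, B6J_23 and BL6J library on a log axis. Lens markers reach 1231000 in V2 replicate 3, RPE markers are lowest in that library at 463900, and the microglia sums of the 3 groups overlap.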

How the data were processed

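Bulk polyA RNA of RPE was sequenced, and the labels name STAR and DESeq2, with GRCm38 and mm10, without versions or settings. The deposited table holds, per the labels' processing notes and its name, normalized counts, a signal per gene that the authors made by dividing each library's count by a size factor. Whole reads were recovered for 100% of values within a tolerance of 0.001, with size factors of 0.541 to 1.20. Of 55573 lines, 240 had no gene name and were dropped; they held up to 0.0203% of any library's counts. Replicates differed beyond sampling noise (chi-square of 16 or more per gene), so each counts as 1 sample.

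Genes with at least 10 normalized counts in at least 3 of the 9 libraries entered limma (version 3.58.1, R 4.3.3) after 1 was added to each normalized count and log2 taken. Variances were shrunk robustly towards a trend in the mean. All 12 libraries of the table, including 3 labelled Tyro3-/-V1, entered 1 model with a term per group (8 residual degrees of freedom), and only contrasts among the 3 groups described were read. A log2 difference on this scale understates the change of low genes. Two-sided p-values had Benjamini-Hochberg adjustment over 19339 genes, with a threshold of 0.05.

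The members and the gene lists were chosen with earlier results of these data known, so lists are given by counts and medians without a test. Named genes are the TAM genes, the 15 largest rises and 15 largest falls called against B6J_23 with a mean of at least 50 and no overlap with all 6 controls (gene models and pseudogenes left out), up to 4 called members and the 2 most abundant members of each list, and up to 3 called markers. Cd300lf, Spidr, Fgf2os and other overlapping genes, and Rsad2, Isg15, Ifit3, Irf7, Stat2, Tgtp1, Osmr, Chrnb4, Aldoart1, Hmgcs1, Fdft1, Cyp51, Slco1c1, Mt2, Lalba, the mitochondrial genes and other uncalled list members were named after their values were seen. Positions came from GENCODE M21 on GRCm38, and promoter sequences from RefSeq on GRCm38.p6, by symbol, for 12990 of 19339 genes.

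The labels do not say that V2 and B6J_23 libraries of the same number are paired, and the main fit used no pairing. The correlations of same-numbered libraries' deviations were 0.491, -0.224 and 0.289, and those of different numbers ranged from -0.531 to 0.34. So few values cannot decide whether the libraries were paired. Counts were simulated at the depth of these libraries with each gene's estimated spread, and only genes with a mean of at least 50 were changed. Against B6J_23, 61 of 100 genes changed 2-fold and 83 of 100 changed 4-fold were recovered, with 4 false calls among 19139 genes. Against BL6J these were 57, 81 and 7. Genes were drawn independently, so variation shared by many genes, as on the first component, was absent. Between the control sets the simulation gave 0 calls and the data 33. The simulation therefore cannot give the recovery or false call rates of the real data. Depth limits low genes, and intervals cover the spread between libraries. Count models of the recovered reads (edgeR version 4.0.16, DESeq2 version 1.42.0), other pseudocounts, filters and scalings, array weights, fewer groups and each library left out were tried as alternatives. Some genes of the lists are counted in them but not reported by name here.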

Additional observations from a re-analysis of the deposited data

How the results depend on the processing

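The 110 genes called against B6J_23 and 130 against BL6J, and the 33 between the control sets, stayed within 1.5 times under a pseudocount of 0.5, no filter, a filter of 50, TMM scaling and edgeR. Quantile normalization gave 27 against B6J_23, with the other 2 counts within 1.5 times, and a pseudocount of 10 moved the 33 to 57. In the order B6J_23, BL6J and between the control sets, array weights gave 374, 315 and 7396 calls, a fit of the 9 libraries without Tyro3-/-V1 29, 70 and 5, and DESeq2 1711, 552 and 884. Only the compared groups gave 0, 0 and 0 by limma, with 3808, 1495 and 6032 genes at an unadjusted p below 0.05 (edgeR on all libraries called 130, 173 and 45). Taking all 6 C57BL/6 libraries as 1 group gave 54 calls. Leaving out V2 replicate 3 and B6J_23 replicate 1, chosen after seeing the data, gave 13, 62 and 9. With 1 library left out the counts ranged from 0 to 144, 44 to 103 and 4 to 92. A replicate block, possible only where numbers are shared, gave 745 calls against B6J_23, but the labels do not say that shared numbers mean paired libraries. The cause of these moves was not tested, beyond the fewer residual libraries of the smaller fits. No log2 difference of a called gene and no list median changed sign in a way that reversed a call. Values under these settings were also kept for single genes, list medians and the separate counts of rises and of falls. Of these, 6878 kept their side of the threshold or their size, and 188 list medians or counts moved. For single genes, 518 values lost a call and 106 gained one. The BL6J libraries are the shallowest, which limits low genes most there.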
